A study of Homo sapiens with 8 samples.

Results

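Claudins and their partner proteins of the tight junction were followed in Alexander1 cells, an established epithelial line from a human hepatocellular carcinoma. The 9 genes were taken by name from the 58206 genes of the count table: the claudins CLDN1, CLDN2, CLDN3, CLDN4, CLDN7 and CLDN12, the membrane proteins OCLN and MARVELD2, and the scaffold gene TJP1. Messenger RNA was sequenced. There were 4 libraries of the parental line, labelled wt (Axin1 -), and 4 of a derivative labelled Axin1+. Per the labels, the line lacks the stretch of the scaffold protein Axin1 that binds the kinase GSK3, which leaves its Wnt pathway permanently on. The derivative was made from it by retroviral transfer of a plasmid and selection of clones with hygromycin B. How many clones gave the 4 libraries is not told, and the labels repeat the transfer protocol for parental samples, so whether those were exposed to drug or virus cannot be read from them. Nothing says that the 4 libraries of a label are separate cultures, so p-values measure the spread between these libraries, which may be technical. Cells were grown in standard serum medium and used below full confluence.

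Tight junctions seal the gap between neighbouring epithelial cells near their apical side. Claudins span the membrane and polymerise into strands, and the mix of claudins sets which ions and how much water pass between cells. Occludin and tricellulin join the strands, and the ZO scaffolds anchor them to actin. In the liver these junctions separate the bile canaliculus from the blood side of the hepatocyte.

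AXIN1, the gene the design set out to restore, was examined first. It stood at 55.3, 52.8, 47.4 and 54.2 CPM (counts relative to the TMM-scaled library size) in the parental libraries, given here and below in the order of replicates 1 to 4, and at 47.6, 48.0, 48.2 and 37.7 CPM in the Axin1+-labelled ones. The log2 fold change, Axin1+-labelled over parental, was -0.21 (SE 0.12, edgeR adjusted p = 0.267), and an exact two-sided permutation test over 70 labelings gave p = 0.114. The message was therefore not measurably higher under the Axin1+ label, and all directions below rest on the labels alone. Library totals ran from 11232951 to 15263761 counts in the parental and from 12372436 to 26400782 in the Axin1+-labelled group, so that 3 counts were worth between 0.108 and 0.267 CPM. Hepatocyte and hepatoma markers were detected in every library, at uneven levels: 10 genes summed to between 24300 and 28600 CPM in the parental and between 18200 and 21900 CPM in the Axin1+-labelled group. SERPINA1 gave the largest part of each sum, TTR stayed between 1.42 and 21.2 CPM, and ALB ranged from 13.8 CPM in Axin1+-labelled replicate 1 to 681 CPM. Of 6 markers each, 5 endothelial and 5 leukocyte genes never passed 11 counts, EMCN and CD3E had 0 throughout, and nearly all signal of those lists came from PECAM1 and LYZ. The endothelial sum ran from 4.58 to 6.77 CPM in the parental and from 34.1 to 58.5 CPM in the Axin1+-labelled group, and the leukocyte sum from 422 to 949 and from 672 to 920 CPM. Of 6 fibroblast markers 4 stayed at or under 11 counts, with sums from 2.71 to 3.22 and from 1.23 to 4.59 CPM. Of 6 cholangiocyte markers SCTR was at 0 and the sums ran from 24.7 to 53.6 and from 39.3 to 77.1 CPM. The libraries numbered 1 gave the largest differences within both labels by a chi-square statistic on raw counts. Parental replicate 1 differed from the other parental libraries by a chi-square statistic of 51.9 to 82.9 per degree of freedom, against 8.59 to 18.0 among those others. Axin1+-labelled replicate 1 differed from its group by 45.2 to 55.0, against 17.7 to 36.8 among the others. This statistic grows with depth, and Axin1+-labelled replicate 1 was the deepest library, at 26400782 counts. How much of its difference came from depth was not tested. Both are kept below, and values without them are given where they differ.

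CLDN2 rose, and it was the single gene of the set to pass the test over all 8 libraries. CLDN4 was too low to be tested there. CLDN1 passed once parental replicate 1 was left out. So did CLDN4 and CLDN7, but each then passed the count filter only through the label where it was highest. These were the remaining parental libraries for CLDN4 and the Axin1+-labelled libraries for CLDN7. Their passes are therefore no support for a difference. Of the 9 genes 8 passed the filter on low counts and could be tested, and 1 of these 8 (12.5%) differed at an adjusted p under 0.05, where 19.2% of all 14289 genes tested did. That share is near the background, so the set as a whole did not stand out in the number of its changes. In the higher direction it was 1 of 8 against 10.4% of all genes, and in the lower direction 0 of 8 against 8.77%. DESeq2 and limma-voom likewise called 1 of the set each. The median log2 fold change of the 8 genes was 0.10, with 4 positive and 4 negative, beside a median of 0.00 over all genes tested. The groups' values did not overlap for 1 of the 8, against 23.9% of all genes tested.

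**Figure D1:**
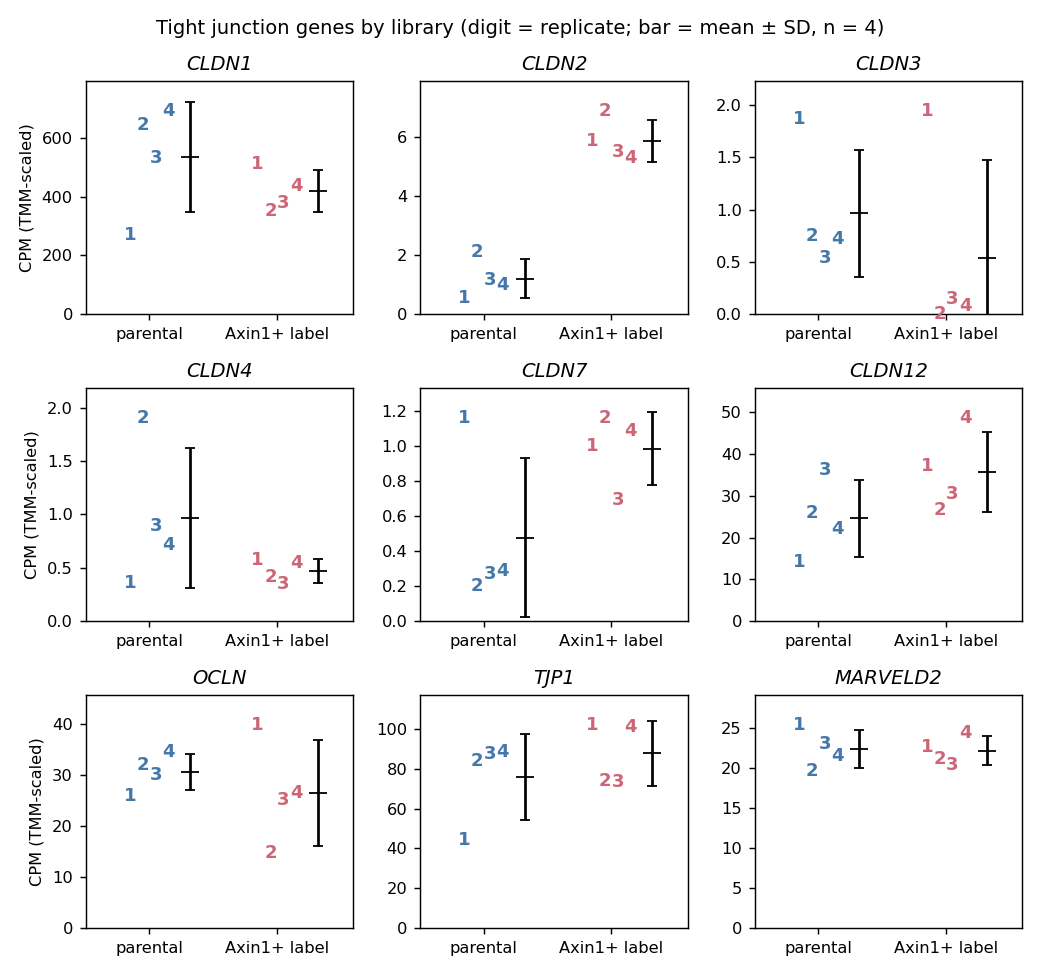
TMM-scaled CPM of the 9 genes in each library, drawn as the replicate number, with the mean and SD of each label (n = 4). CLDN2 is separated between the labels (0.534 to 2.10 against 5.27 to 6.85 CPM), the other 8 overlap, and the lower SD bar of CLDN3 is cut off at 0.

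Because CLDN2 carried the change, its promoter is shown with those of CLDN1, the most abundant claudin, and CLDN7, a low claudin of like direction. Each window runs from 250 bases before to 50 after the RefSeq start site (GRCh38.p14), 5′ to 3′. CLDN1 lies at chr3:190322397-190322696, minus strand. CLDN2 lies at chrX:106918110-106918409, plus strand. CLDN7 lies at chr17:7262429-7262728, minus strand. Capitals mark CACCTG on either strand, the E-box bound by Snail-type repressors.
CLDN1: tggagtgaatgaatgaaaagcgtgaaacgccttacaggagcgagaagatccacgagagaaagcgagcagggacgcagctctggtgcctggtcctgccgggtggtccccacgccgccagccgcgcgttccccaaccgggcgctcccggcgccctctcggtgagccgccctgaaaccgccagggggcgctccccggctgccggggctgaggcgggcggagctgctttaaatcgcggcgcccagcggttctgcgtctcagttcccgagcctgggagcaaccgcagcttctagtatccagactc
CLDN2: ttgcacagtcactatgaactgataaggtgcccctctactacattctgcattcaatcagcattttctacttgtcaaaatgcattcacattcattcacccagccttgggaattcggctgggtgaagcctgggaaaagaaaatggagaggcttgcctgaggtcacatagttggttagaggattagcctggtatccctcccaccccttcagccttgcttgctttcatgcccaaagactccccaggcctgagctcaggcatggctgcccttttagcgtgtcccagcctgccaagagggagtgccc
CLDN7: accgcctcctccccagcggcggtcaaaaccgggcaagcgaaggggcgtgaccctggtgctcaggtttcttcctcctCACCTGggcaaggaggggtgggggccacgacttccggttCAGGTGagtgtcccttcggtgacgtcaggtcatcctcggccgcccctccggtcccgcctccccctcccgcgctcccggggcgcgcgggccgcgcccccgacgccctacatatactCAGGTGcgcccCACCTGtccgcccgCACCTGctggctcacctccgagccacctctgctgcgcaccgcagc

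All 9 genes had an entry in that promoter table. The CLDN2 window holds 2 CpG dinucleotides at 51.3% GC, whereas CLDN1 holds 31 at 67.0% and CLDN7 holds 30 at 71.7%. The median GC content of the 35116 windows of this length was 58.7%. CACCTG occurs in CLDN3, CLDN7 and OCLN, 3 of the 9, against 20.6% of all windows. The CLDN7 window has 5 matches, starting at -174, -135, -20, -9 and 6 from the start site. Other 6-base motifs were sought on both strands and do not overlap it: CTTTGA, the core bound by TCF/LEF factors of the Wnt pathway, TTTATG, a CDX core, and CAAAGT, an HNF4 core. CTTTGA matched in CLDN4 alone (12.9% of all windows), CAAAGT in TJP1 alone (11.9%), and TTTATG in none of the 9 (10.6%). The CLDN2 window thus held none of the 4 motifs, and this concerns these letters in this window only. The RefSeq start of CLDN2 lies 18.2 kb inside the GENCODE gene, so transcripts can also begin upstream of it.

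CLDN2 (ENSG00000165376, chromosome X, 106900164 to 106930861, plus strand) encodes a claudin that forms pores for small cations and water and marks leaky epithelia. CPM values were 0.534, 2.10, 1.16 and 1.00 for the parental line and 5.85, 6.85, 5.47 and 5.27 for the Axin1+ label. All Axin1+-labelled libraries were above all parental ones. The means were 1.20 CPM ± 0.656 and 5.86 CPM ± 0.703 (SD, n = 4 each), resting on 6 to 31 counts per parental and 83 to 163 counts per Axin1+-labelled library. The fitted log2 difference was 2.26 (SE 0.35, 95% interval 1.50 to 3.02, edgeR adjusted p = 0.00164), a ratio of means of 4.89. By exact permutation (two-sided) p was 0.0286, the lowest value this number of libraries can reach. The call held in 19 of 19 alternative analyses, with log2 fold changes from 2.01 to 2.68 and adjusted p up to 0.00763. An exon of RIPPLY1 on the opposite strand overlaps 341 bases of CLDN2, but RIPPLY1 had at most 2 counts in any library. The other genes tested around CLDN2, 20 on each side, centred on a log2 fold change of 0.27 (median). Of these 40 genes 7 were called higher and 2 lower, beside 10.4% and 8.77% of all genes.

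CLDN1 and CLDN12 were the claudins of the set with high or moderate levels, and neither passed the test. CLDN1 (ENSG00000163347, chromosome 3, 190305701 to 190322475, minus strand) encodes a barrier-forming claudin that is widespread in epithelia, hepatocytes included. It stood at 271, 642, 530 and 689 CPM in the parental and at 509, 350, 379 and 436 CPM in the Axin1+-labelled libraries. Parental replicate 1 was the lowest of all libraries and the other parental libraries were the 3 highest, so the labels overlapped only through that library. The means were 533 ± 187 and 419 ± 69.8 CPM (SD, n = 4 each). The fitted log2 difference was -0.35 (SE 0.25, 95% interval -0.90 to 0.21, edgeR adjusted p = 0.364). Without parental replicate 1 it was -0.57 (SE 0.15, adjusted p = 0.0208), and without both libraries numbered 1 it was -0.67 (SE 0.14, adjusted p = 0.00313). CLDN12 (ENSG00000157224, chromosome 7, 90383721 to 90513402, plus strand), an atypical claudin, stood at 14.1, 25.8, 36.3 and 22.1 CPM in the parental and 37.1, 26.7, 30.5 and 48.6 CPM in the Axin1+-labelled libraries. The ranges overlapped, and parental replicate 1 was again the lowest. Means were 24.6 ± 9.25 and 35.7 ± 9.60 CPM (SD, n = 4 each). CLDN12 differed by 0.54 on the log2 scale (SE 0.27, 95% interval -0.05 to 1.14, edgeR adjusted p = 0.186), and 0.34 without both libraries numbered 1. Exons of CLDN12 overlap those of GTPBP10 and CDK14 on the same strand, which stood at 13.7 to 21.6 and 12.2 to 28.1 CPM, so some of its reads could belong to either.

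CLDN3, CLDN4 and CLDN7, barrier-forming claudins typical of ductal and intestinal epithelia, were near the detection limit. CLDN3 (ENSG00000165215, chromosome 7, 73768997 to 73770270, minus strand) had 21, 11, 6 and 10 counts in the parental and 54, 0, 3 and 2 counts in the Axin1+-labelled libraries. In CPM these were 1.87, 0.745, 0.534 and 0.716 against 1.94, 0, 0.148 and 0.0781. The library numbered 1 was the highest of its label in both groups, and the other Axin1+-labelled libraries lay below the other parental ones. Group means were 0.966 ± 0.609 and 0.541 ± 0.933 CPM (SD, n = 4 each). Over all libraries CLDN3 gave a log2 fold change of -0.66 (SE 0.93, 95% confidence interval -2.70 to 1.37, edgeR adjusted p = 0.652). It was -0.15 (SE 0.97, adjusted p = 0.934) without parental replicate 1 and -2.09 (adjusted p = 0.135) by limma-voom, and CLDN3 did not pass the filter once Axin1+-labelled replicate 1 was left out. Leaving out Axin1+-labelled replicate 2, 3 or 4 gave -0.36, -0.37 and -0.30. Markers of bile duct cells did not move together across these libraries. KRT19, a bile duct keratin, was high in the libraries numbered 1, at 16.9 and 34.4 CPM against at most 3.99 and 1.43 CPM in the other parental and Axin1+-labelled libraries. KRT7, a related keratin, was at 12.4 CPM against at most 3.12 in the parental and 5.70 CPM against at most 5.12 in the Axin1+-labelled group, and the progenitor factor SOX9 at 23.2 against at most 22.7 and 28.6 against at most 26.8 CPM. The chloride channel CFTR was lowest in the libraries numbered 1, at 0.534 and 8.11 CPM, against at least 1.69 and 10.5 CPM. AQP1 had at most 7 counts, and SCTR had 0. The part of such cells in the CLDN3 values was not tested.

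CLDN7 (ENSG00000181885, chromosome 17, 7259903 to 7263983, minus strand) stood at 1.16, 0.203, 0.267 and 0.286 CPM in the parental and 1.00, 1.16, 0.690 and 1.09 CPM in the Axin1+-labelled libraries. Parental replicate 1 alone reached the level of the Axin1+-labelled libraries. Group means were 0.478 ± 0.454 and 0.986 ± 0.207 CPM (SD, n = 4 each). The fitted log2 difference was 1.07 (SE 0.51, 95% interval -0.06 to 2.21, edgeR adjusted p = 0.169), which became 1.94 (SE 0.43, adjusted p = 0.00851) without parental replicate 1 and 1.92 (adjusted p = 0.00733) without both libraries numbered 1. These rest on 3 to 4 counts in each of the remaining parental libraries. In both of these comparisons CLDN7 passed the count filter only through the Axin1+-labelled libraries, where it was highest. These p-values are therefore no support for a difference. A transcript of another gene on the same strand shares 269 bases with CLDN7, and ELP5 on the opposite strand, at 85.6 to 108 CPM, overlaps 38 bases.

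CLDN4 (ENSG00000189143, chromosome 7, 73799542 to 73832693, plus strand), the neighbour of CLDN3 at a distance of 29.3 kb, did not pass the count filter. It had 4, 28, 10 and 10 counts in the parental and 16, 5, 7 and 14 in the Axin1+-labelled libraries, or 0.356, 1.90, 0.891 and 0.716 against 0.574, 0.413, 0.345 and 0.546 CPM. Parental replicates 2, 3 and 4 were the 3 highest. Group means were 0.965 ± 0.659 and 0.470 ± 0.109 CPM (SD, n = 4 each). An exact two-sided permutation test of log2(CPM + 1) gave p = 0.143. Without an expression filter the log2 fold change was -1.0 (edgeR adjusted p = 0.250). Without parental replicate 1 it was -1.29 (adjusted p = 0.0477), and without both libraries numbered 1 it was -1.40 (adjusted p = 0.0331). In both of these comparisons CLDN4 passed the count filter only through the remaining parental libraries, the 3 highest. These p-values are therefore no support for a difference.

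The libraries numbered 1 therefore bore on several genes at once. With parental replicate 1 left out, 4 of the 9 genes then tested passed the threshold (CLDN2 and CLDN7 higher, CLDN1 and CLDN4 lower), beside 24.1% of all genes. CLDN4 and CLDN7 are in this count although each passed the filter only through the label where it was highest. That label was parental for CLDN4 and Axin1+ for CLDN7. With both left out, the same 4 passed among 8 tested, beside a background that rose to 32.3%. The same limit holds there for CLDN4 and CLDN7. CLDN3 did not pass the filter in that comparison. Leaving out both was chosen after the values were seen, and describes how much rests on those libraries.

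**Figure D2:**
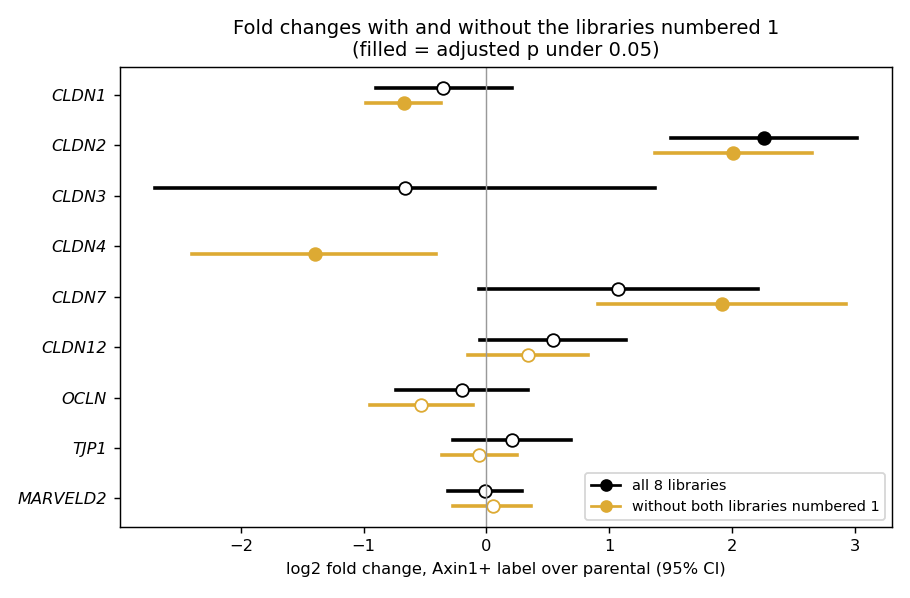
Log2 fold change of each gene, Axin1+-labelled over parental, with 95% confidence interval, from all 8 libraries and without both libraries numbered 1; filled points passed an adjusted p of 0.05. CLDN2 passes in both, whereas CLDN1, CLDN4 and CLDN7 pass in the smaller set alone. CLDN3 and CLDN4 each could be tested in 1 of the comparisons. In the smaller set CLDN4 and CLDN7 passed the count filter only through the label where each was highest.

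OCLN, MARVELD2 and TJP1 complete the set, and none of them passed the test. OCLN (ENSG00000197822, chromosome 5, 69492292 to 69558104, plus strand) encodes occludin. It stood at 25.9, 31.8, 30.0 and 34.4 CPM in the parental and at 39.7, 14.7, 25.0 and 26.4 CPM in the Axin1+-labelled libraries, where replicate 1 was the highest and replicate 2 the lowest of all. Group means were 30.5 ± 3.56 and 26.4 ± 10.3 CPM (SD, n = 4 each). OCLN differed by -0.20 on the log2 scale (SE 0.25, 95% interval -0.74 to 0.34, edgeR adjusted p = 0.604). Without both libraries numbered 1 it was -0.53 (SE 0.19, adjusted p = 0.0519), still short of the threshold. OCLN shares 679 bases at up to 99.7% identity with the pseudogene OCLNP1, which had at most 6 counts per library.

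MARVELD2 (ENSG00000152939, chromosome 5, 69415065 to 69444330, plus strand) encodes tricellulin, which closes the points where 3 cells meet. It varied least of the set, at 25.4, 19.7, 23.0 and 21.5 CPM in the parental and 22.6, 21.2, 20.4 and 24.4 CPM in the Axin1+-labelled libraries. The coefficients of variation were 10.7% and 7.97%, against 11.7% to 94.9% for the other genes in the parental and 12.0% to 173% in the Axin1+-labelled libraries. Its fitted log2 difference was -0.01 (SE 0.14), with a 95% interval of -0.31 to 0.29 (edgeR adjusted p = 0.958), and its sign turned in 7 of 19 alternative analyses. MARVELD2 and OCLN are 48.0 kb apart on chromosome 5. Among the 40 neighbours of OCLN the median was 0.43 on the log2 scale, and among those of MARVELD2, largely the same genes, it was 0.45, with 9 called higher and 1 lower each, beside the 10.4% and 8.77% of all genes; the other 30 did not pass. OCLN and MARVELD2 themselves were at -0.20 and -0.01.

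TJP1 (ENSG00000104067, chromosome 15, 29699367 to 29968865, minus strand) encodes ZO-1, the scaffold that links claudins and occludin to actin. It stood at 44.0, 83.7, 87.3 and 88.5 CPM in the parental and 102, 74.0, 73.6 and 101 CPM in the Axin1+-labelled libraries. Parental replicate 1 was far below the other parental libraries, which lay within the range of the Axin1+-labelled ones. Group means were 75.9 ± 21.4 and 87.7 ± 16.1 CPM (SD, n = 4 each). The fitted log2 difference was 0.21 (SE 0.22, 95% interval -0.27 to 0.69, edgeR adjusted p = 0.534), and -0.06 (SE 0.14) without both libraries numbered 1.

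**Figure D3:**
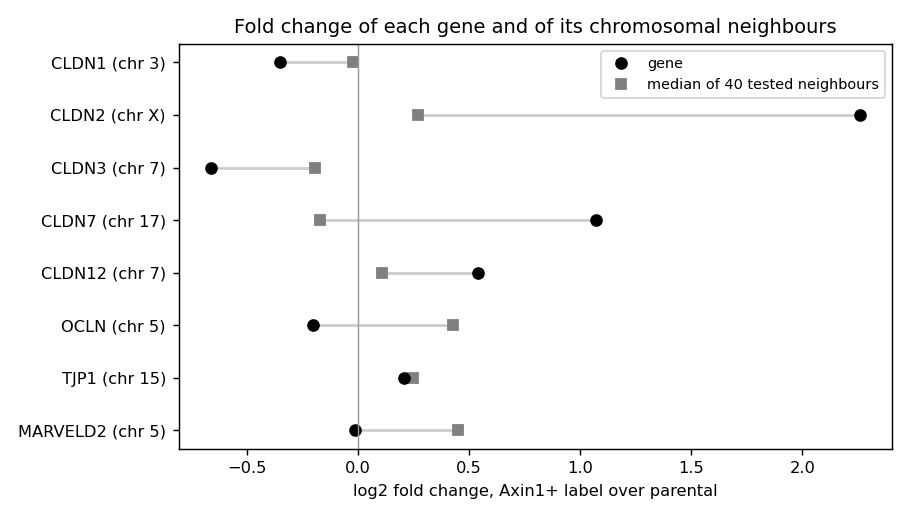
Log2 fold change of each tested gene (circle) and median of its 40 tested neighbours on the chromosome (square), Axin1+-labelled over parental. CLDN2 at 2.26 lies far from its neighbours' 0.27, and OCLN and MARVELD2 lie below the 0.43 and 0.45 of theirs.

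Levels of different genes were compared per kilobase of exon. In the parental group CLDN1 led with 146 CPM per kb ± 51.1 (SD, n = 4), and its lowest library, at 74.0, was far above the highest value of TJP1, at 7.86. TJP1 (6.73 ± 1.90), OCLN (4.51 ± 0.526), MARVELD2 (4.17 ± 0.446) and CLDN12 (3.65 ± 1.37) followed, each overlapping the next. CLDN3 (0.758 ± 0.478), CLDN2 (0.351 ± 0.192), CLDN4 (0.205 ± 0.140) and CLDN7 (0.192 ± 0.182) formed a lower tier, again without separation between neighbours. Between the tiers, the lowest CLDN12 value was 2.09 and the highest CLDN3 value 1.47. In the Axin1+-labelled group CLDN1 was at 114 ± 19.1, TJP1 at 7.78 ± 1.43, CLDN12 at 5.29 ± 1.42, MARVELD2 at 4.13 ± 0.329 and OCLN at 3.91 ± 1.52, where neighbours from TJP1 downward overlapped. CLDN2, at 1.72 ± 0.206, ran from 1.55 to 2.01. It thus lay between the lowest OCLN value, 2.17, and the highest CLDN3 value, 1.52, by narrow margins. CLDN3 (0.424 ± 0.732) overlapped CLDN7 (0.396 ± 0.0830), and CLDN4 (0.0999 ± 0.0232) was below CLDN7 in all libraries. With the longest transcript as the length, CLDN12 moved to place 3 in the parental group, at 6.89, and OCLN to place 5, at 4.74, while CLDN7 and CLDN4 changed places.

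Over all 24 claudins measured, CLDN1 made up most of the claudin mRNA. Its share of the summed CPM per kb was 71.1, 90.6, 87.7 and 91.2% in the parental and 87.3, 84.0, 85.3 and 86.9% in the Axin1+-labelled libraries. Parental replicate 1 was again apart, with 15.4% from CLDN15, a pore-forming claudin, against 3.42 to 3.92% in the other parental libraries. CLDN2 made up 0.151, 0.318, 0.206 and 0.142% in the parental and 1.08, 1.76, 1.32 and 1.13% in the Axin1+-labelled libraries. Per 1000 units of CLDN1 that was 1.56 to 3.51 of CLDN2 in the parental and 12.3 to 21.0 in the Axin1+-labelled group, with no overlap. CLDN2 thus remained a minor claudin under both labels.

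**Figure D4:**
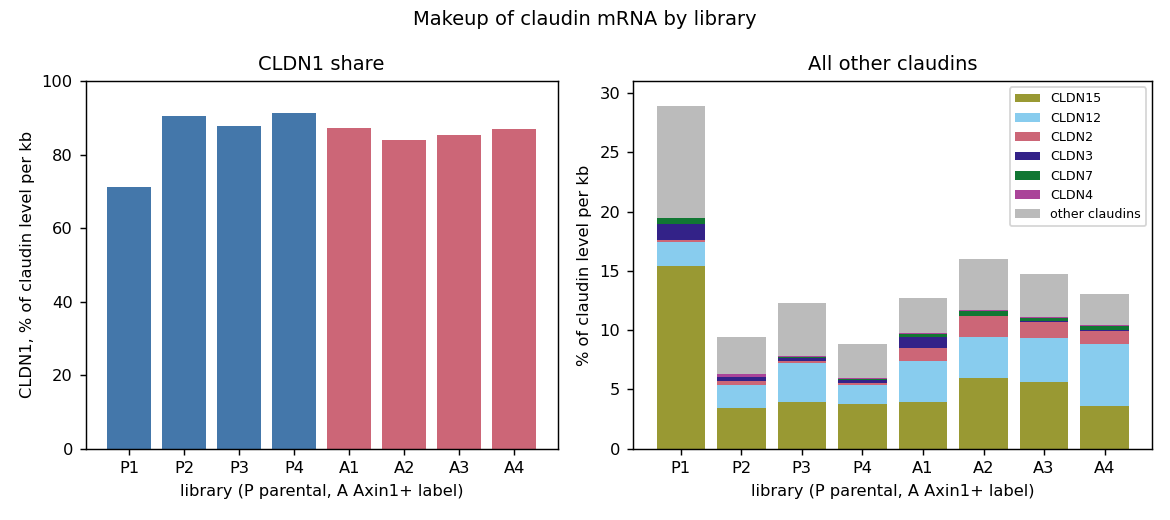
Share of each claudin in the summed claudin level (CPM per kb, in percent) in parental (P1 to P4) and Axin1+-labelled (A1 to A4) libraries; the left panel shows CLDN1 and the right panel the rest. CLDN1 is at 84.0% or more in every library but parental replicate 1 (71.1%), and the CLDN2 segment is at most 0.318% in parental and at least 1.08% in Axin1+-labelled libraries.

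The other 18 claudins were mostly silent. Of these, 13 did not pass the filter, 11 had 3 counts or fewer in each library, and CLDN8, CLDN17, CLDN20, CLDN24 and CLDN25 had 0 throughout, which allows up to between 0.108 and 0.267 CPM per library, counting error only. Of the 5 tested, 1 was called (20%, beside 19.2% of all genes), and all 5 had negative log2 fold changes (median -0.60). CLDN16, a claudin of magnesium handling in the kidney, was the called one, and it is named here after its values were seen. It had 0.178, 2.17, 3.03 and 3.58 CPM in the parental and 0.861, 0.165, 0.197 and 0.546 CPM in the Axin1+-labelled libraries, and parental replicate 1 made the groups overlap. Its log2 fold change was -2.23 (SE 0.69, edgeR adjusted p = 0.0448), a call that held in 8 of 19 alternatives. It was -3.09 (adjusted p = 0.000138) without both libraries numbered 1. In that smaller comparison CLDN16 passed the count filter only through the parental libraries, where it was highest. That p-value is therefore no support for a difference. CLDN16 begins 65 bases from CLDN1 and is transcribed the other way, and that start lies inside the CLDN1 promoter window printed above.

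Other membrane proteins of the junction formed a list of 12, of which 8 were tested. Of these 1 rose and 1 fell (25%, beside 19.2% of all genes), and the median was 0.09. CLMP, an adhesion protein of the family of the coxsackievirus receptor, stood at 6.50, 9.88, 12.6 and 9.66 CPM in the parental and 2.12, 0, 0.197 and 0.0781 CPM in the Axin1+-labelled libraries. All Axin1+-labelled values were below the parental ones, and replicate 1 was the highest of them. Its log2 fold change was -3.83 (SE 0.79, edgeR adjusted p = 0.00838), and -6.45 (SE 0.50) without Axin1+-labelled replicate 1. JAM3, a junctional adhesion molecule, rose at a low level. Its mean was 0.408 ± 0.244 CPM for the parental line and 1.50 ± 0.163 CPM for the Axin1+ label (SD over 4 libraries each). The log2 difference was 1.82 (SE 0.42) at an edgeR adjusted p of 0.0136. JAM3 passed the count filter only through the Axin1+-labelled libraries, where it was highest, so this p-value is no support for a difference. Its exons overlap 465 bases of NCAPD3 on the opposite strand, and whether counting used strand is not given in the sources used here. F11R, the main junctional adhesion molecule of epithelia, and LSR, which recruits tricellulin, were abundant and did not pass, with log2 fold changes of 0.09 (95% confidence interval -0.26 to 0.44) and 0.10 (-0.22 to 0.42).

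Plaque and polarity proteins numbered 28, all tested, with 2 higher, 1 lower and a median of 0.14. The share called was 10.7%, beside 19.2% of all genes. The groups' values did not overlap for 6 of the 28, against 23.9% of all genes. TJP3, encoding the scaffold ZO-3, stood at 40.1, 23.2, 26.5 and 26 CPM in the parental and 61.9, 92.3, 99.2 and 92.0 CPM in the Axin1+-labelled libraries, without overlap. TJP3 rose by 1.58 on the log2 scale (SE 0.20, edgeR adjusted p = 0.000615), which held in 19 of 19 alternatives. AMOTL1, an angiomotin-like protein of the junction, had at most 3 counts in any parental library. It stood at 1.29, 5.20, 5.72 and 6.68 CPM in the Axin1+-labelled ones. Their mean of 4.72 CPM was 19.8 times the mean of 0.238 CPM that 3 counts in each parental library would give. The fitted log2 difference was 5.03 (SE 0.63, 95% interval 3.64 to 6.42, edgeR adjusted p = 0.000557). AMOTL1 passed the count filter only through the Axin1+-labelled libraries, where it was highest, so this p-value is no support for a difference. An antisense gene overlaps 496 bases of the AMOTL1 exons. PARD3, a polarity scaffold, fell slightly. Its mean was 88.9 ± 4.69 CPM for the parental line and 68.7 ± 3.99 CPM for the Axin1+ label (SD over 4 libraries each), for a log2 difference of -0.37 (SE 0.10) at an edgeR adjusted p of 0.0311. The PARD3 values did not overlap, but the call held in 10 of 19 alternatives, with adjusted p from 0.00217 to 0.168.

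Over the 3 lists together, 58 genes, 41 were tested, and 3 were higher and 3 lower. These 6 made up 14.6%, beside the 19.2% of all genes given above. JAM3 and AMOTL1 are among the 6 although they passed the count filter only through the Axin1+-labelled libraries, where they were highest. Without parental replicate 1 the number called was 11 (26.8%, beside 24.1% of all genes), and without Axin1+-labelled replicate 1 it was 12 (29.3%, beside 22%). Without both it was 16 (39%, beside 32.3%), of which 7 were higher and 9 lower. The lists' counts thus rose along with those of all genes. The 16 included CGN, the cytoskeletal linker cingulin, at a log2 fold change of -0.80 (adjusted p = 0.00467), against -0.51 (adjusted p = 0.140) in all 8 libraries.

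**Figure D5:**
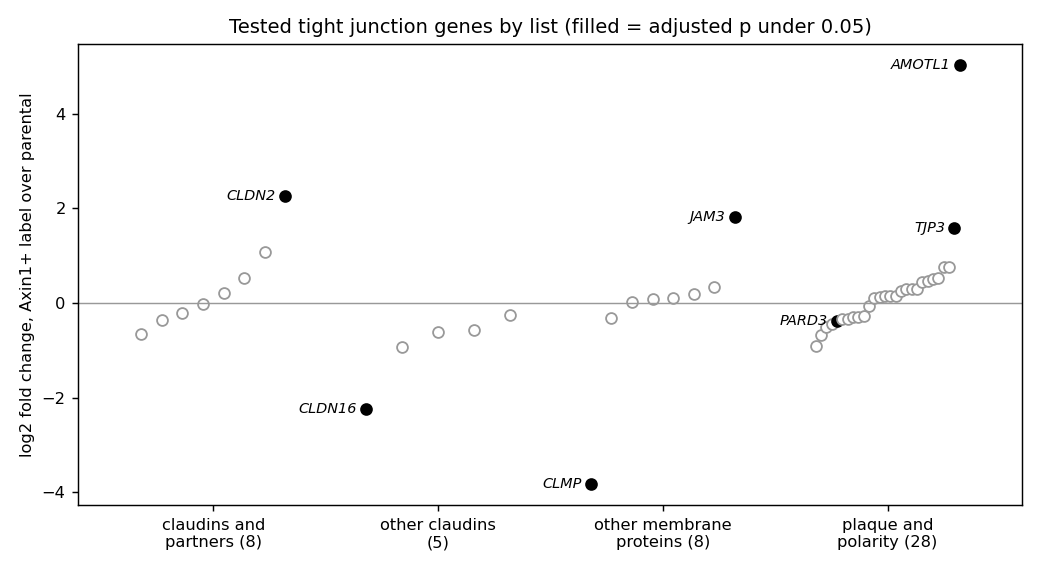
Log2 fold change, Axin1+-labelled over parental, of the tested genes of each list; filled, named points passed an adjusted p of 0.05. CLDN2, JAM3, TJP3 and AMOTL1 are higher and CLDN16, CLMP and PARD3 lower. JAM3 and AMOTL1 passed the count filter only through the Axin1+-labelled libraries, where they were highest.

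Proteins that bind claudins at the cell surface, or act on such proteins, were mostly too low to test. Of 5, 4 did not pass the filter, EPCAM, ST14 and SPINT1 among them, with at most 25 counts in any library. EPCAM, which holds CLDN7 in a complex, had at most 5. SPINT2, an inhibitor of the membrane proteases that cleave EPCAM, stood at 88.3, 40.9, 35.1 and 22.1 CPM in the parental and 198, 198, 192 and 156 CPM in the Axin1+-labelled libraries. SPINT2 rose without overlap, by 2.0 on the log2 scale (SE 0.34, edgeR adjusted p = 0.00304), with 19 of 19 alternatives past the threshold; another gene shares 242 bases of its exons on the same strand. Among 15 transcription factors and splicing regulators linked to claudin or epithelial gene expression 8 were tested. Of these 0 were called by edgeR, beside 19.2% of all genes, 1 by DESeq2 and 0 by limma-voom. An unadjusted edgeR p under 0.05 was found for 3. SNAI1, the repressor Snail, had a log2 fold change of -0.85 (adjusted p = 0.126), the intestinal factor CDX2 -0.50 (adjusted p = 0.176) and the hepatocyte factor HNF4A 0.09 (adjusted p = 0.772).

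The genes whose pattern over the 8 libraries was most like that of CLDN2 were KLHL29, CACNA1D and CFI. Likeness was the root mean square difference of centred log2 CPM among 12942 genes, at 0.20, 0.28 and 0.28, where the CLDN2 profile itself had a spread of 1.24. KLHL29 went from a mean of 5.25 to 26.1 CPM, CACNA1D from 0.261 to 2.06 and CFI from 15.7 to 75.4, and as their choice used these values no test is given. EOLA2-DT, AKR1B1 and RASSF5 were nearest to CLDN7 (0.22, 0.24 and 0.26, own spread 0.81). MIB1, SLC39A10 and MIER3 were nearest to CLDN12 (0.09, 0.10 and 0.10, own spread 0.51).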

How the data were processed

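RNA was sequenced from 8 samples, 4 per label, grouped by their titles. The authors deposited raw, unnormalized gene counts, and 0 of its columns belonged to no sample. Per the submitters' processing notes, bcl2fastq, fastp 0.23.1 and STAR 2.7.4 and the build GRCh38 were used; the counting program, annotation and use of strand are not given in the sources used here. Of 58206 identifiers, 57943 matched GENCODE 29 (GRCh38), which gave positions, exon lengths and overlaps, and 57495 a symbol.

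The analysis used edgeR 4.0.16 in R 4.3.3: filterByExpr (minimum count 10, minimum total 15), TMM scaling, and the quasi-likelihood test without covariates, two-sided, with Benjamini-Hochberg adjustment over 14289 genes and a threshold of 0.05. Dividing the size of the log2 fold change by the root of its F statistic gave the standard error. CPM values use TMM-scaled totals, and log2 CPM a prior count of 2. Alternatives were DESeq2 size factors, upper-quartile scaling, library totals, other filters, the DESeq2 1.42.0 Wald test, limma-voom (limma 3.58.1), the replicate number as a block, a threshold of 0.01, and leaving out each library. Leaving out both libraries numbered 1, and thinning to 11232951 counts, were added after seeing the data. On simulated counts of 14104 genes with 200 changed, edgeR recovered 59.0% of 2-fold and 96.0% of 4-fold changes, and 4.91% of its calls were false. The simulation changed few genes and set no library apart from its group. Its rates therefore need not hold for the real libraries or for genes of low count.

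The genes and lists were chosen with earlier results of these data known. Named genes are the 9 genes, AXIN1, and called genes of the related lists without overlap (at most 5 per list). Genes of like pattern are the 3 nearest to each of the 3 genes of the set with the smallest p, with a symbol and a mean of at least 1 CPM. CLDN15, CLDN16, F11R, LSR, CGN, SNAI1, CDX2, HNF4A and the cell type markers fall outside this rule and were added after their values were seen. Shared sequence was sought with BLAST (at least 100 bases at 95% identity). Some genes of the lists are counted but not reported here by name.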

Additional observations from a re-analysis of the deposited data

Results flagged for a closer look

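In 32 groups of 4 libraries (16 named genes under both labels), 7 held 1 library whose gap to the nearest other, as a share of the group's range, passed Dixon's critical value at 95%; chance alone gives about 1 in 20. CLDN3 was high in parental replicate 1 (1.87 CPM, others 0.534 to 0.745) and in Axin1+-labelled replicate 1 (1.94 CPM, others 0 to 0.148). Parental replicate 1 was also high for CLDN7 (1.16 CPM, others 0.203 to 0.286) and low for TJP1 (44.0 CPM, others 83.7 to 88.5). Axin1+-labelled replicate 1 was high for CLMP (2.12 CPM, others 0 to 0.197). Axin1+-labelled replicate 4 was low for AXIN1 (37.7 CPM, others 47.6 to 48.2) and for SPINT2 (156 CPM, others 192 to 198). Of these 7, 5 concerned a library numbered 1.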

How the results depend on the processing

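CLDN2 passed the threshold in 19 of 19 alternatives, and CLDN12, OCLN and TJP1 in 0 of 19. The set held 1 called gene in all alternatives but those without parental replicate 1 and without both libraries numbered 1, where it held 4. In both of those, CLDN4 and CLDN7 passed the count filter only through the label where each was highest. Leaving out 1 library each gave 1 to 4 called genes of the set, 4 to 12 of the other tight junction genes and 1394 to 3523 of all genes. An adjusted p under 0.01 left 964 genes and 3 other tight junction genes. Without both libraries numbered 1 there were 4623 and 16. MARVELD2 turned from -0.01 to 0.08 with library totals, 0.02 without an expression filter, 0.05 without parental replicate 1 and without both libraries numbered 1, 0.009 and 0.03 without Axin1+-labelled replicates 2 and 3, and 0.01 after thinning; leaving out 1 library each gave -0.07 to 0.05. TJP1 turned to -0.06 without both libraries numbered 1. The cause was not tested. Scaling by library totals made 1724 of 2592 called genes higher, against 1485 of 2738, with 1 called gene of the set in both, and moved the median of all genes from 0.00 to 0.09.

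The replicate numbers did not pair the samples: deviations from the group means correlated at -0.06, 0.01, -0.03 and 0.23 for numbers 1 to 4, and not every library correlated best with its own number. With the replicate number as a block, 2033 genes, 4 other tight junction genes and 1 of the set (CLDN2) passed. At these depths CLDN3, CLDN4 and CLDN7 rest on 54 counts or fewer per library, and differences in them smaller than their intervals were not detectable.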
